A study of Mus musculus with 4 samples.

Results

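The genes described here each had at least 1 probe set that read lower in the synaptic region of the mouse diaphragm. Fat cell, brown fat and fast fibre genes and a few further names were left out by symbol. The genes described were chosen on the values themselves. Intensities were floored and put on the log2 scale, and a probe set was kept when it was annotated to 1 gene, when both synaptic arrays lay below both non-synaptic arrays, when the difference of the region means was at most -0.7 and when the mean of the 4 arrays was at least 8.87. This gave 145 probe sets of 143 genes, out of 22192 such probe sets of 12363 genes measured above that mean. Before names were left out 163 of the 22192 met the values, or 0.734%. Another 18 probe sets of 14 genes met the same values and were left out by name. Of all 26480 probe sets measured, 210 met the values, which is 0.793%, and 301 met them turned round in the other direction, which is 1.14%. Since the values of these arrays chose the genes, every difference below is a description and none was tested.

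RNA came from the left hemi-diaphragm of the mouse, from the synaptic region (2 arrays) and from the non-synaptic region (2 arrays). The labels give no strain, age, sex, genotype or treatment and do not say whether 2 arrays of the same region stand for different animals. All 9 measured markers of skeletal muscle were present in both regions, with a median difference of 0.02, and of 6 measured genes of the postsynaptic part of the fibre 4 had both synaptic arrays above both others, against 9.89% of all probe sets. Limma with Benjamini-Hochberg adjustment called 1 probe set higher (0.00378%) and 2 lower (0.00755%) over all probe sets, and 0 of the 145 were among them. At an unadjusted limma p under 0.05 there were 42 of the 145, against 88 lower among all probe sets (0.332%), and since the rule used the same contrast nothing is read from that count.

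The motor nerve reaches the diaphragm in a narrow central band, and the nuclei beneath the synapses transcribe genes that the rest of the fibre hardly uses. A muscle piece also holds fat cells, vessels, connective tissue cells and macrophages, and their share can differ from place to place. In bulk RNA, fewer cells of a type and less RNA per cell cannot be told apart. A fat cell is built under the control of C/EBP alpha and PPAR gamma, and its lipid breakdown is switched on through cyclic AMP and protein kinase A.

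The 143 genes were sorted by role after their values were seen. The measured genes of each role were not counted, so no group size can be set beside the 0.734% above. Among the 143 genes, 5 are well known from fat cells, and they are described first because markers of that cell also lay lower in the synaptic arrays. RefSeq promoter windows (assembly GRCm38.p6, from 250 bases before the start to 50 after it) were at hand for 4 of the 5 and are printed from 5' to 3' to show what these genes carry at their starts. Capitals mark matches to 6 short motifs on either strand. The E-box is CANNTG and the N-box, an element of synaptic genes, is CCGGAA. The TATA box was taken as TATAAA, and the next motif reads CCAAT. The GC box is GGGCGG, and the nuclear receptor motif is AGGTCA. The windows are chr12:32061228-32061527, minus strand for Prkar2b, chr7:35119043-35119342, plus strand for Cebpa, chr2:157559828-157560127, plus strand for Nnat and chr19:38125272-38125571, minus strand for Rbp4.
Prkar2b: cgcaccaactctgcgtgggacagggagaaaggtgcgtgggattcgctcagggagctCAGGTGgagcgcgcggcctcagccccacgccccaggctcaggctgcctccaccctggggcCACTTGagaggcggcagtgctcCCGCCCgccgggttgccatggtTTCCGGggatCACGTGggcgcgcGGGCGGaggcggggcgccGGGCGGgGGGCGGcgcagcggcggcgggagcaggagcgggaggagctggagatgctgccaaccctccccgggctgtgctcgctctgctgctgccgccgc
Cebpa: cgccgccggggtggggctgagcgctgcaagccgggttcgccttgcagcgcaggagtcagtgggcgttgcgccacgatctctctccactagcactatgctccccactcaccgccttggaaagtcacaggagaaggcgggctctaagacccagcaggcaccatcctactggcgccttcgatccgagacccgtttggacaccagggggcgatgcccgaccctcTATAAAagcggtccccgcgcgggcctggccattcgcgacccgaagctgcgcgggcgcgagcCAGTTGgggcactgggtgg
Nnat: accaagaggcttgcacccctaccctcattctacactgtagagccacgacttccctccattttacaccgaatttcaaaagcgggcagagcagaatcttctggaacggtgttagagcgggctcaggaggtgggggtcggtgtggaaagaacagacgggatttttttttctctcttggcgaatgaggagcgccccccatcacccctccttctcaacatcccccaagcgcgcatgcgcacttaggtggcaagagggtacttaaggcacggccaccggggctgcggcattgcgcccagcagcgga
Rbp4: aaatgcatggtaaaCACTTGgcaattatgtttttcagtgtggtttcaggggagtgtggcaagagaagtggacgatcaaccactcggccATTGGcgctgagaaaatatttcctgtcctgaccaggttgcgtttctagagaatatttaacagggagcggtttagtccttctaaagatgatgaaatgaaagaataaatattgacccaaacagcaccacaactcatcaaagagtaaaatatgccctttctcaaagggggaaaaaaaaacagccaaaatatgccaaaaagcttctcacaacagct
The window of Prkar2b held 3 E-boxes, 1 N-box and 4 GC boxes, that of Cebpa 1 TATA box and 1 E-box, and that of Rbp4 1 E-box and 1 match to CCAAT. None of the 6 motifs was in these letters of Nnat. A match is a run of letters and not a binding site.

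Prkar2b encodes the RII beta regulatory subunit of protein kinase A, a form abundant in fat and brain, and 2 of its probe sets met the rule. The first read 8.08 and 7.98 in the synaptic arrays, against 10.19 and 10.10 in the others, a difference of -2.11 ± 0.07 (log2, SE from 2 arrays per region). The second read 7.98 and 8.68 against 9.99 and 9.85, a difference of -1.59 ± 0.36. In both, every synaptic array lay below every non-synaptic array, with at least 1.18 between the nearest arrays. The remaining probe set of the gene differed by -0.03.

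Ces1d, a carboxylesterase that breaks down stored lipid in fat and liver, also had 2 probe sets. One read 9.56 and 9.52 in the synaptic arrays against 10.78 and 10.38, a difference of -1.04 ± 0.20, and the other read 9.12 and 8.85 against 10.55 and 10.40, a difference of -1.49 ± 0.15. Its remaining probe set lay below the limit on the mean and differed by -1.88. All 3 probe sets of Ces1d thus lay lower in the synaptic region.

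Cebpa, the transcription factor C/EBP alpha, read 10.15 and 10.57 in the synaptic region and 11.56 and 11.25 outside it, a difference of -1.04 ± 0.26. Nnat, the imprinted gene of the small membrane protein neuronatin, read 8.90 and 9.29 against 9.97 and 10.29, a difference of -1.03 ± 0.25. Rbp4, the carrier of retinol in blood, which liver and fat secrete, read 8.58 and 9.67 against 9.73 and 10.20, a difference of -0.84 ± 0.59. Cebpa and Nnat had both synaptic arrays well below the others, while the higher synaptic array of Rbp4 lay only 0.07 below the lower non-synaptic one.

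Of 12 fat cell markers 7 were measured, all 7 with a negative difference, against 48.6% of all genes, and 4 with both synaptic arrays below both others, against 9.98% of all probe sets. Their median difference was -0.49, against 0.005 over all genes. The 4 were Adipoq, Retn, Pck1 and Fabp4, all symbols left out by name, and in Lipe, Pparg and Aqp7 the regions overlapped. The list was chosen with earlier results of these data known, so these shares are only a description. Adipoq, the fat cell hormone adiponectin, read 7.54 and 7.56 in the synaptic arrays, against 13.14 and 12.82 in the others. Pck1 was at the floor in both synaptic arrays and read 11.38 and 11.58 in the others. Lep, below the limit on the mean, was at the floor in all arrays but non-synaptic replicate 2, where it read 8.12. Summed over the 9 with a probe set, the intensity was 121635 and 114460 in the synaptic arrays against 144627 and 140614 outside the synaptic region. Fabp4, also an endothelial gene, made up most of each sum and read 16.77 and 16.70 against 16.86 and 16.85. Pparg read 10.35 and 9.84 against 10.22 and 10.49. The part of fat cells in the values of Prkar2b, Ces1d, Cebpa, Nnat and Rbp4 was not tested.

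**Figure D1:**
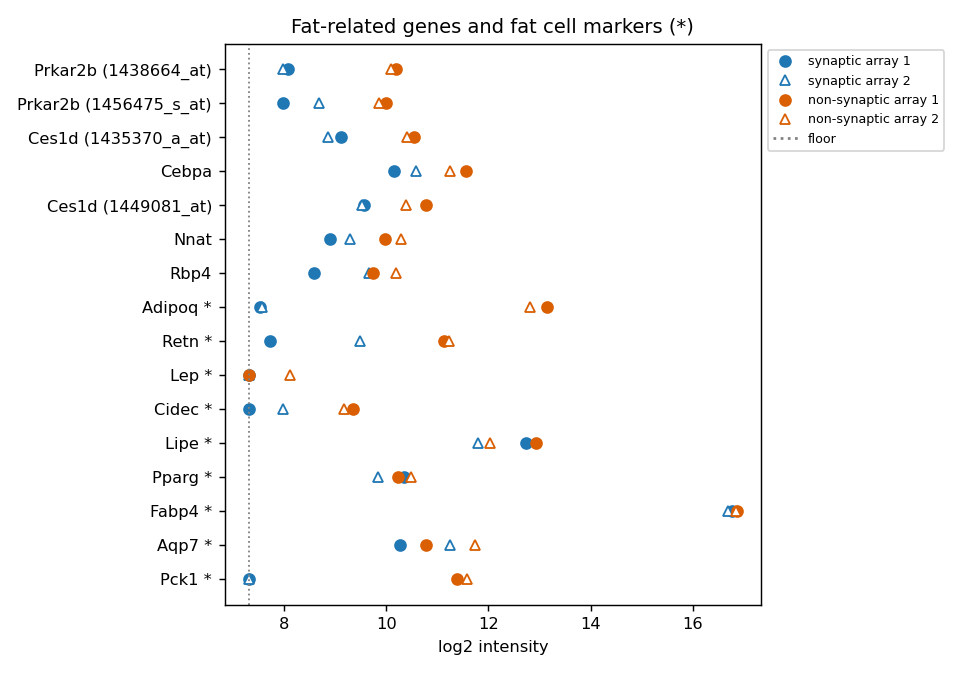
Log2 intensity (horizontal axis) of the 5 fat-related genes and, with an asterisk, of the fat cell markers, 1 symbol per array, with the floor as a dotted line. Blue symbols of Prkar2b, Ces1d, Cebpa and Nnat lie to the left of the orange ones. Pck1 sits on the floor in the synaptic arrays, and Lep in all arrays but non-synaptic array 2.

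Other genes of lipid storage and lipolysis showed smaller differences. Of 32 genes of that list 25 were measured, with a median of -0.14, and 18 of the 25 were below 0. Both synaptic arrays lay below both others for 4 of them, a share to be read beside 9.98% of all probe sets. These were Cebpa, Ces1d, Agpat2, an enzyme of triglyceride synthesis, at -0.50, and Angptl4, an inhibitor of lipoprotein lipase, at -0.36. For fat synthesis and cytosolic redox supply the median of 19 measured genes was 0.009, and none was among the 143.

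Rab11fip4, an effector of the small GTPase Rab11 in the recycling of endosomes, had the largest difference of the 143 when each was read from its brightest probe set that met the rule. It read 8.47 and 7.93 in the synaptic region and 10.23 and 9.94 outside it, a difference of -1.88 ± 0.31. The nearest arrays of the regions were 1.47 apart. The 2 other probe sets of the gene lay below the limit on the mean and differed by -0.30 and -0.28. The 3 genes outside the list with the most similar course over the 4 arrays were Hp (haptoglobin, Pearson r = 0.999), Cdo1 (cysteine dioxygenase, r = 0.983) and Adipoq (r = 0.977), among 3908 probe sets that varied by at least 1. All 3 were among the symbols left out by name, and the correlations describe 4 points.

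Vesicle traffic was represented by 7 further genes, with weaker separation. Becn1, the autophagy protein beclin 1, read 7.31, the floor, and 10.35 in the synaptic arrays, against 10.66 and 10.44 in the others. Its difference of at least 1.72 in size came from 1 synaptic array, and it was -0.20 without synaptic replicate 1. The 4 other probe sets of Becn1 ran from -0.39 to 0.17. Syt8, a member of the synaptotagmin family, read 8.05 and 9.38 against 10.20 and 9.88, a difference of -1.33 ± 0.68, and had no other probe set. Ehd1, which acts in endocytic recycling, read 10.55 and 11.34 against 11.59 and 11.74, with 3 other probe sets between -0.29 and -0.10. Differences of Stx17, Vti1a, Nsf and Hap1 ran from -0.84 to -0.76. Other measured probe sets ran from -0.25 to -0.05 for Stx17 and from -0.14 to -0.09 for Vti1a, and that of Nsf differed by -0.17. Of a broader list of 33 genes of vesicle and endosome traffic, 31 were measured with a median of 0.06 when each was read from its brightest probe set. Read so, 1 of the 31, Rab11fip4, had both synaptic arrays below both others, against 9.98% of all probe sets. Ehd1, read so, differed by -0.10.

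**Figure D2:**
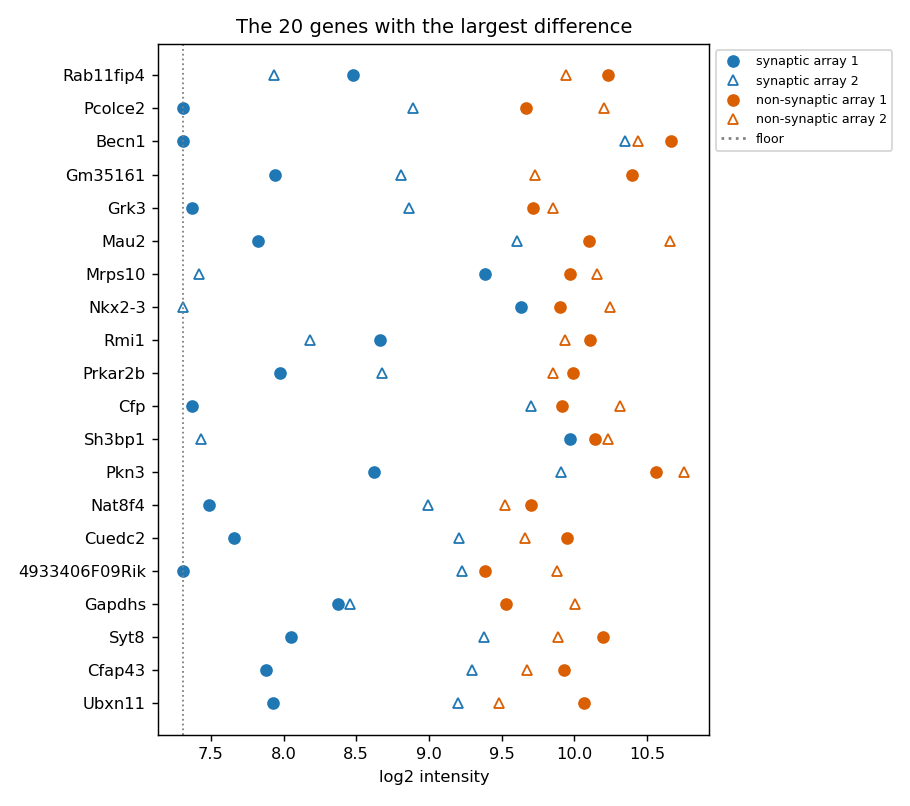
Log2 intensity on each array for the 20 genes with the largest difference, each read from its brightest probe set that met the rule, with the floor as a dotted line. In Rab11fip4, Prkar2b, Rmi1 and Gapdhs both synaptic arrays stand apart, whereas in Becn1, Nkx2-3 and Sh3bp1 a single synaptic array is low.

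Genes of immune cells were 14 of the 143, with differences from -1.58 to -0.71. Fcna, the lectin ficolin A that macrophages make, read 9.75 and 9.97 in the synaptic arrays, against 10.93 and 10.72 in the others, a difference of -0.97 ± 0.15. Retnla, a resistin-like hormone of fat tissue and alternatively activated macrophages, read 10.57 and 11.20 against 11.29 and 12.46, a difference of -0.99 ± 0.66. Fcna had the regions 0.76 apart, while the nearest arrays of Retnla were 0.09 apart. Cfp, the complement factor properdin, read 7.37 and 9.70 against 9.92 and 10.31, and its other probe set differed by 0.45. Ifi207, an interferon-inducible gene, read 9.60 and 9.56 against 10.36 and 10.54, a difference of -0.87 ± 0.10. Herc6, an interferon-inducible ligase, differed by -0.81 ± 0.24. Its other measured probe set differed by -1.13 and read 7.34 and 10.83 against 9.65 and 10.79. Both arrays numbered 1 thus lay below both numbered 2, and synaptic replicate 2 lay above both non-synaptic arrays. Acp5, the acid phosphatase of macrophages and osteoclasts, differed by -0.89 ± 0.34, and Unc13d, which primes granule release, by -0.99 ± 0.30.

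All 9 macrophage markers were measured, with a median of -0.13, and 2 of them had both synaptic arrays below both others, against 9.98% of all probe sets. These were Cd163, a scavenger receptor of tissue macrophages, at -0.53 and C1qc at -0.39. Csf1r, the growth factor receptor of the lineage, differed by -0.06, and its regions overlapped. Summed over the list, the 2 synaptic arrays had intensities of 36448 and 42975 and the 2 others 40172 and 48960. The 3 measured lymphocyte markers went the other way, with a median of 0.80 and 0 of the 3 below 0. In Ighm and Jchain, 2 of these 3, the regions overlapped. The part of macrophages in the values of Fcna and Retnla was not tested.

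Muscle fibre genes were 6 of the 143, and in the 4 with other measured probe sets these lay between -0.24 and 0.13. Tnni2, fast skeletal troponin I, read 10.25 and 10.15 in the synaptic region and 11.56 and 10.57 outside it, a difference of -0.86 ± 0.50, while its 2 other probe sets differed by 0.03 and 0.04. Trdn, triadin of the calcium release complex, differed by -0.94 ± 0.40, and its 5 other probe sets ran from -0.15 to 0.08. Dtna, the dystrophin-associated protein alpha dystrobrevin, read 10.23 and 10.85 against 11.26 and 11.58, a difference of -0.88 ± 0.35, and 5 other measured probe sets ran from -0.24 to 0.13. Ank2, a membrane anchor of the spectrin skeleton, differed by -1.16 ± 0.55, with other probe sets at -0.14 and -0.05. Myof (myoferlin, of membrane fusion and repair) read 9.79 and 9.84 against 10.39 and 10.66, and Stac2, an adaptor of the muscle calcium channel family, read 8.68 and 9.17 against 9.42 and 9.85. Of 30 measured genes of the sarcomere and fast fibre list the median difference was 0.04, and the 6 fast glycolytic fibre markers had a median of -0.08. Of these 6, 3 had both synaptic arrays below both others, against 9.98% of all probe sets, with Myh4 at -1.32, Mybpc2 at -0.58 and Actn3 at -0.18. The part of fast fibres in the value of Tnni2 was not tested.

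Vessel wall genes numbered 5. Pde2a, a cyclic nucleotide phosphodiesterase, read 12.25 and 11.66 in the synaptic arrays, against 12.93 and 12.56 in the others, but its 2 other probe sets differed by 0.06 and -0.07. Tmem100, a membrane protein of endothelium, read 11.03 and 11.24 against 12.02 and 11.81, a difference of -0.77 ± 0.15, with -0.17 on its other probe set. Myh11, smooth muscle myosin, read 10.69 and 11.27 against 11.55 and 11.94, a difference of -0.77 ± 0.35. Pde1a, a calcium-dependent phosphodiesterase, read 8.89 and 8.90 against 9.65 and 10.29, a difference of -1.08 ± 0.32. Avpr1a, a vasopressin receptor of vascular smooth muscle, differed by -1.03 ± 0.52, and its other probe set by -0.62. The 7 measured markers of smooth muscle and pericytes, Myh11 among them, had a median of -0.12, and 3 had both synaptic arrays below both others, against 9.98% of all probe sets. Summed over the 8 with a probe set, the intensity was 147899 and 149930 on the synaptic side and 147619 and 168006 on the other. Cnn1 was at the floor in all arrays but non-synaptic replicate 2, where it read 7.60. For endothelium the median of 8 markers was -0.02. The part of these cells in the values was not tested.

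Genes of matrix and secreted signals numbered 8. Pcolce2, which enhances the trimming of procollagen, read 7.31, the floor, and 8.89 in the synaptic region and 9.67 and 10.20 outside it, a difference of at least 1.83 in size. It had no other probe set. Fn1 (fibronectin) differed by -0.80 ± 0.45 and by -0.34 on its other probe set. Bdnf, a neurotrophin, read 9.07 and 9.41 against 10.19 and 9.80, with -0.11 on its other probe set. Differences of Spock3, Sema6b, Cela1, Bmp7 and Cd109 lay between -0.98 and -0.72. In the list of 34 measured matrix genes the median was -0.01, and Fn1 was its single gene among the 143. Rbp4 and Nnat were those from 30 measured secreted signals, whose median was -0.13.

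Keratinocyte and surface epithelium genes gave 6 names. Krt14, a keratin of basal keratinocytes, read 10.01 and 9.06 in the synaptic region and 10.70 and 10.08 outside it, a difference of -0.86 ± 0.56. A second measured probe set of Krt14 differed by -0.75, and another, below the limit on the mean, by 0.33. Krt6a, a keratin of stressed epidermis, read 8.87 and 8.60 against 9.22 and 9.89. Lgals7 (galectin 7) read 8.23 and 8.79 against 9.07 and 9.66. Ly6g6c differed by -1.10 ± 0.30 on 1 probe set and by 0.35 on another. Tspan8 and Cchcr1 differed by -0.79 and -0.75. The other measured probe set of Tspan8 differed by 0.15. The 9 markers of mesothelium, the lining of the diaphragm's surface, had a median of -0.11. Of them 0 had both synaptic arrays below both others, against 9.98% of all probe sets.

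Receptors and signal relay formed the largest group, with 16 genes. Grk3, a kinase that desensitises G protein-coupled receptors, read 7.37 and 8.86 in the synaptic arrays, against 9.72 and 9.85 in the others, a difference of -1.67 ± 0.75, but its other probe sets differed by 0.08 and 0.43. Pkn3, a protein kinase, read 8.62 and 9.91 against 10.56 and 10.76, a difference of -1.39 ± 0.65, and had no other probe set. Sh3bp1, a GTPase-activating protein, read 9.97 and 7.43 against 10.14 and 10.23, so that only synaptic replicate 2 was far below. Without that array the difference of Sh3bp1 was -0.22. Casr, the calcium-sensing receptor, differed by -1.10 ± 0.54. Npy4r, a receptor of the pancreatic polypeptide family, read 8.68 and 8.52 against 9.51 and 9.58, a difference of -0.94 ± 0.09. Castor2, a relative of an arginine sensor of the mTORC1 pathway, read 9.59 and 9.47 against 10.42 and 10.55, a difference of -0.96 ± 0.09, while 3 other probe sets ran from -0.13 to 0.15. Rassf1, a tumour suppressor, read 9.90 and 11.79 against 11.87 and 11.96, and was -0.13 without synaptic replicate 1. Other measured probe sets of Rassf1 differed by -0.10 and 0.08. Arhgef40 differed by -1.10 ± 0.26, with other probe sets at -0.37, 0.41 and 0.44.

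Genes of genome maintenance and cell division were 9. Rmi1, a subunit of the complex that dissolves crossed DNA strands, read 8.66 and 8.19 in the synaptic region and 10.11 and 9.94 outside it, a difference of -1.60 ± 0.25. Its 4 other probe sets gave 0.97, 0.89, 0.12 and -0.09, so that the mean of all 5 was 0.06. Mau2, which helps load cohesin, read 7.82 and 9.61 against 10.10 and 10.66, with 3 other probe sets from -0.11 to -0.03. Sass6, a centriole protein, read 8.67 and 8.27 against 9.42 and 9.56, a difference of -1.01 ± 0.21. Fanci, of the Fanconi repair pathway, read 9.81 and 9.42 against 10.67 and 10.30. Lin9, Cdca3 and Tpx2 had differences from -0.76 to -0.73. Other measured probe sets differed by 0.25 and 0.10 for Cdca3 and by 0.04 and -0.07 for Tpx2. Trp53bp1 read 7.62 and 9.23 against 9.38 and 9.32, and its difference of -0.93 was -0.12 without synaptic replicate 1. Other measured probe sets of Trp53bp1 ran from -0.10 to 0.09. E2f5 read 10.58 and 11.75 against 12.66 and 11.79. The difference of E2f5, -1.06, was -0.47 without synaptic replicate 1 and -0.63 without non-synaptic replicate 1. On its other probe sets it was -0.07 and -0.26.

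Transcription regulators gave 8 genes. Nkx2-3, a homeobox factor, read 9.63 and 7.31, the floor, in the synaptic region and 9.90 and 10.24 outside it, a difference of at least 1.60 in size, and its other measured probe set differed by -0.57. Irx6, another homeobox gene, read 9.24 and 8.08 against 9.54 and 9.61. Ankrd11, a chromatin regulator, read 8.54 and 8.41 against 9.32 and 9.42, while its 6 other probe sets ran from -0.45 to 0.24. RNA handling gave 6 genes, among them Ttf1, a terminator of ribosomal RNA transcription, at -0.97 ± 0.20 and -0.54 on a second probe set. Ncl (nucleolin) read 7.31, the floor, and 9.43 against 9.47 and 9.44. The regions of Ncl were 0.009 apart, and its 4 other probe sets ran from -0.63 to 0.17. None of the 31 measured genes of a broader list of transcription regulators was among the 143, and their median difference was -0.10.

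In protein modification and turnover, Ssr3, a subunit of the translocon-associated complex of the endoplasmic reticulum, had the highest mean among the probe sets that met the rule. It read 12.68 and 12.91 in the synaptic arrays, against 13.62 and 13.96 in the others, a difference of -0.999 ± 0.21, while its other probe set differed by -0.06. Keap1, the sensor of the oxidative stress response, read 10.18 and 11.72 against 11.77 and 11.86, and was -0.10 without synaptic replicate 1. The other probe set of Keap1 differed by 0.02. Cuedc2 read 7.66 and 9.21 against 9.95 and 9.66, with -0.06 on its other probe set. Rnf20, a ligase for histone H2B, read 9.37 and 9.30 against 10.15 and 10.01, with 3 other probe sets from -0.17 to 0.12. Usp19 and Ufm1 differed by -0.84 and -0.78. Other measured probe sets gave 0.07 and -0.20 for Usp19, and -0.08, -0.51 and 0.24 for Ufm1.

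Mitochondrial genes were 5, and Mrps10, of the small mitochondrial ribosome subunit, read 9.39 and 7.42 against 9.97 and 10.16, with 0.01 on its other probe set. Cisd2, an iron-sulfur protein of mitochondria and endoplasmic reticulum, read 9.34 and 9.41 against 10.29 and 10.19, with 0.04 and -0.03 on its other probe sets. Sfxn1, a mitochondrial serine transporter, differed by -0.81 ± 0.20, and by -0.36 on its other probe set. Mrps31 differed by -0.87, and by 0.03 on its other probe set. Acad10 read 7.89 and 9.58 against 9.67 and 9.66, and its difference of -0.93 was -0.0869 without synaptic replicate 1. The other probe set of Acad10 differed by -0.18. Of the solute transporters, 7 in number, Slc26a11 had the largest difference, -1.08 ± 0.64, and Slc26a3, an anion exchanger of gut, read 8.77 and 8.88 against 9.62 and 9.78. Slco1b2, an organic anion carrier of liver, read 8.26 and 8.62 against 9.22 and 9.38, at the lower limit of the mean.

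Some of the 143 are known from tissues far from muscle. Gapdhs, the sperm form of a glycolytic enzyme, read 8.37 and 8.46 in the synaptic region and 9.53 and 10.01 outside it, a difference of -1.35 ± 0.24. Cfap43, of the sperm tail and cilia, read 7.88 and 9.30 against 9.93 and 9.67, and Ooep, an egg protein, read 9.15 and 8.92 against 10.10 and 9.74. Cacna1a, the pore of a neuronal calcium channel, read 9.55 and 8.49 against 10.2292 and 10.0004, whereas its other measured probe sets differed by 0.86 and 0.48. Cdh22 and Iglon5 differed by -0.84 and -0.85. Bace2 differed by -0.72, and its other measured probe sets by -0.58, 0.00 and 0.75. A group of 23 genes had no role assigned, and among them Gm35161 read 7.94 and 8.81 against 10.40 and 9.73. In that group Nat8f4 read 7.49 and 8.99 against 9.70 and 9.52, Ubxn11 read 7.93 and 9.20 against 10.06 and 9.48, and 4933406F09Rik read 7.31, the floor, and 9.23 against 9.39 and 9.88. The regions of 4933406F09Rik were 0.16 apart.

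Over the 145 probe sets, the synaptic arrays did not contribute equally. Synaptic replicate 1 was the lower of the 2 synaptic arrays in 100 of them (69.0%), against 53.9% of all probe sets measured. The median absolute difference between the synaptic arrays was 0.68 among the 145 and 0.35 among all, while between the non-synaptic arrays it was 0.26 and 0.30. In 51 probe sets the synaptic arrays differed from each other by more than the regions did, and in 53 they differed by less than the distance between the nearest arrays of the regions. That distance was at least 0.7 in 23 genes and under 0.2 in 39. Without synaptic replicate 1 the difference was smaller by over 1.5 times in 64 genes and lay within 0.2 of 0 in 13 (Ncl, Rassf1, Acad10, Trp53bp1, Keap1, Lsm11, Ypel1, Paqr5, Zmynd15, Cchcr1, Cd109, Trbv13-2 and B230216N24Rik). Without synaptic replicate 2 these numbers were 20 and 2 (2610005L07Rik and Ccsap). Synaptic replicate 1 also had the lowest median intensity, 658 against 704 to 769 in the other arrays, and its Gapdh probe sets had the highest ratio of 3' to 5' intensity, which rises as RNA degrades, at 1.03 against 0.814 to 0.853. Their part in the list was not tested.

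**Figure D3:**
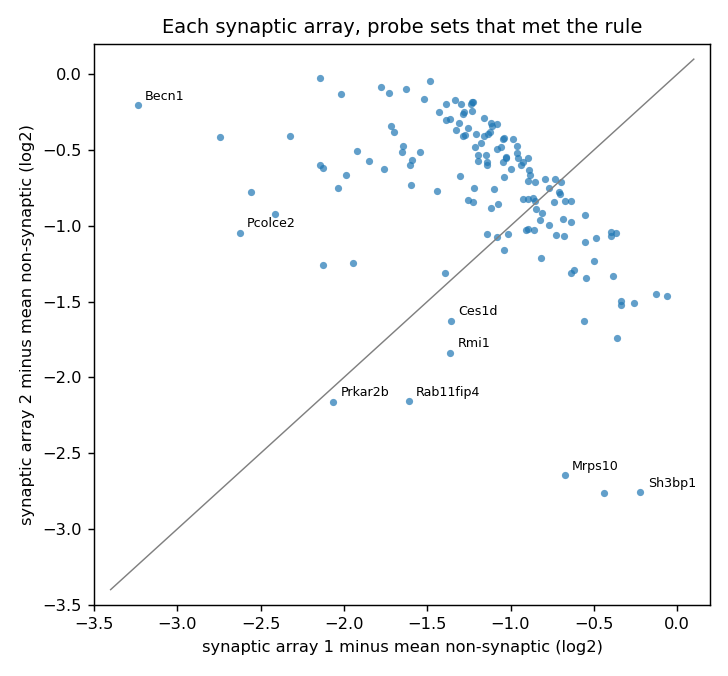
Each of the 145 probe sets by its synaptic replicate 1 (horizontal) and synaptic replicate 2 (vertical) minus the mean of the non-synaptic arrays, in log2 units, with the line of equal values. Points near the line, such as Prkar2b, Ces1d and Rab11fip4, are low on both arrays, and 100 of the 145 lie above it, lower on replicate 1.

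The probe sets that met the rule had low signals. Their median mean log2 intensity was 9.28, against 10.95 over all probe sets measured, and for 116 of the 143 genes it was under 10 and for 11 it was 11 or more. In 68 genes another measured probe set was brighter. The brightest of these in each gene had a median mean of 11.68 and a median difference of -0.05. In the remaining 75 the brightest measured probe set of the gene was one that met the rule. The median difference was -0.86, with 41 genes at -1 or below and 102 between -1 and -0.7. The floor held 1 synaptic array in 5 genes (Pcolce2, Becn1, Nkx2-3, 4933406F09Rik and Ncl) and both in 0. Just inside the threshold lay B230216N24Rik at -0.702, 1700017B05Rik at -0.705 and Slc35f1 at -0.705. Just outside it lay Vps9d1 at -0.699965, Ell at -0.699 and Fbxw22 at -0.697.

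**Figure D4:**
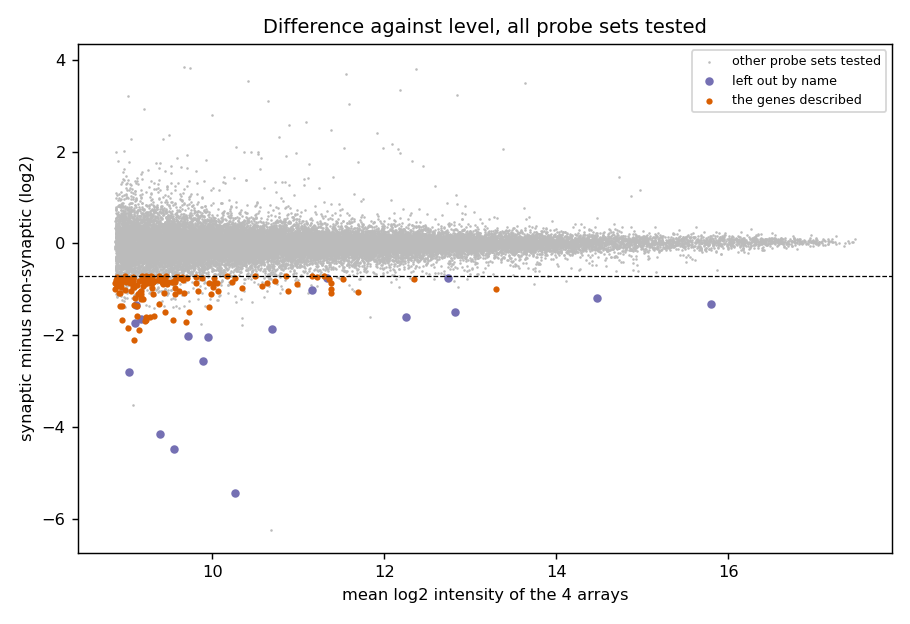
Difference between the regions (vertical, log2) against the mean of the 4 arrays (horizontal, log2) for all 26480 probe sets measured, with the 145 in orange, the 18 left out by name in purple and the threshold of -0.7 as a dashed line. The orange points crowd at the low end, with a median mean of 9.28, and Ssr3 is the rightmost.

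Other probe sets of the same genes are those that did not meet the rule. Second probe sets that met it, those of Prkar2b and Ces1d, are not among them. That the others seldom showed the same size is therefore partly fixed by the choice. Of the 143 genes 35 had no other probe set, 28 had one only below the limit on the mean, and 80 had 163 others above it. Their median difference was -0.05, 91 were below 0 and 72 above, and 129 lay within 0.3 of 0. Both synaptic arrays lay below both others in 19 of the 163 (11.7%), against 9.98% of all probe sets. At -0.7 or below were 2, of Herc6 and Krt14, and in both the arrays of the regions overlapped, as the choice required. That of Krt14 read 9.57 and 8.17 in the synaptic arrays against 9.95 and 9.30, with synaptic replicate 2 alone below both others. In Avpr1a, Herc6, Krt14, Nkx2-3 and Ttf1 every other measured probe set was at -0.5 or below. The brightest probe set was another than the one that met the rule in 68 genes. Probe sets whose name ends in _x_at, which can bind transcripts of more than 1 gene, made up 7.59% of the 145 and 6.34% of all. Among the 145, those of Rab11fip4, Becn1, Ssr3 and Pde2a have such names. Whether the probe sets of a gene differ because they read different transcripts was not tested.

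**Figure D5:**
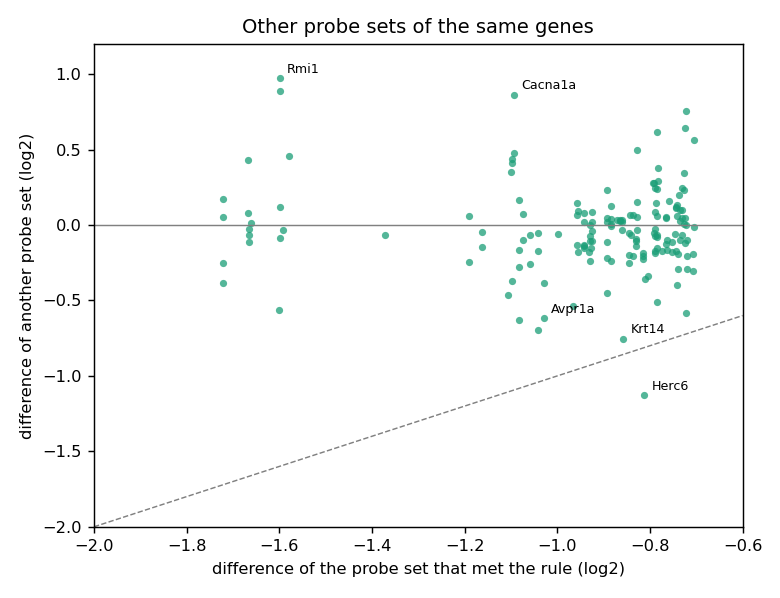
Difference of the 163 other measured probe sets (vertical, log2) against that of the probe set of the same gene that met the rule (horizontal, log2), with lines at 0 and at equal values. Most points lie near 0, with 129 of them within 0.3. Krt14 lies close to the line of equal values and Herc6 below it.

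By the same search, the genes most like Pcolce2 over the 4 arrays were Vps9d1 (r = 0.999), 4931406C07Rik (r = 0.998) and Tank (r = 0.996), with differences of -0.70, -0.61 and -0.65. Those most like Becn1 were Tmpo, Gpatch2 and Wdr38, each with r of 0.999 and each with synaptic replicate 1 alone low. In Tmpo, for instance, the arrays read 8.54 and 9.63 in the synaptic and 9.70 and 9.66 in the non-synaptic region.

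On the chromosomes the 143 genes were spread widely. Chromosome 11 held 21 of them (14.7%), against 8.38% of all genes measured, and chromosome 2 held 14 (9.79%, against 8.03%). Syt8 and Tnni2 are direct neighbours on chromosome 7, and Myof and Rbp4 on chromosome 19 have 2 annotated genes between them. RefSeq promoter windows were found for 104 of the 143 genes. An E-box was in 64.4% of them against 63.6% of the windows of all genes measured, an N-box in 19.2% against 26.8%, a TATA box in 15.4% against 7.64%, CCAAT in 39.4% against 38.0%, a GC box in 49.0% against 63.4% and the nuclear receptor motif in 15.4% against 12.3%. Over all 27025 promoter windows, measured or not, the shares were 72.1% for the E-box, 15.2% for the N-box, 14.2% for the TATA box, 37.9% for CCAAT, 35.9% for the GC box and 16.04% for the nuclear receptor motif, so that the direction for the E-box, N-box, GC box and nuclear receptor motif depends on the windows compared. Each was searched on both strands, and overlaps between motifs were allowed. These shares describe the windows and were not tested.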

How the data were processed

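RNA of 2 regions of the left hemi-diaphragm was hybridised to 4 arrays of 1 colour, 2 per region. The deposited values are linear intensities, 1 per probe set. How the authors summarised and scaled them is not given in the sources used here. All 4 arrays share a 2% trimmed mean of 2500, which points to a common scaling. The intensities were floored at 158.891 (the 20th percentile of all values, 7.31 on the log2 scale) and put on the log2 scale. Probe sets with a mean of at least 8.87, the 40th percentile of all values, were kept, without 64 control probe sets. The written design called this limit the percentile of the probe set means; the rule's own number was used. Symbols came from the platform annotation, updated through the Entrez identifier with RefSeq tables of GRCm38.p6 (34754 of 34958 probe sets matched). The members, their groups and all lists were chosen with earlier results of these data known, and the groups of genes by role after their values were seen. Of each gene the brightest probe set that met the rule was described, with every array's value for the 20 largest differences and for others chosen after their values were seen. In the gene and marker lists each gene was read from its brightest measured probe set. The standard error of a difference comes from the 2 arrays of each region alone.

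Limma 3.58.1 in R 4.3.3 (lmFit, eBayes with an intensity trend, 2-sided) was run on all 26480 probe sets for the background counts and checked on simulated data. As different animals are not documented, its p-values measure only how far arrays differ, and that spread may be technical. The number of arrays and signal near the floor limit the precision. Alternatives were another normalization, floor, filter, threshold, variance prior, the replicate number as a block and leaving out each array.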

Additional observations from a re-analysis of the deposited data

How the results depend on the processing

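The signs of the 143 differences are fixed by the way the genes were chosen, so their stability under most settings says nothing. Quantile normalization and median centring left 141 and 143 genes, of which 127 and 128 were among the 143. With the floor at the 40th percentile 81 probe sets of 79 genes met the rule, without a filter 671 of 658 genes, and with the filter at the 60th percentile 22 of 22 genes. A limit of -0.5 gave 379 probe sets of 370 genes and a limit of -1 gave 43 of 41 genes. Leaving out each array gave from 388 to 1951 probe sets and from 374 to 1704 genes: 374 without synaptic replicate 1, 1704 without synaptic replicate 2, 1044 without non-synaptic replicate 1 and 385 without its replicate 2, and of the 143 genes 68, 113, 95 and 90 were among them. A rule on 3 arrays is easier to meet, and no other cause was tested. The median difference ran from -1.11 to -0.67 over these, and it was -0.43 when a gene was read as the average over its probe sets (-0.34 over the 108 genes with more than 1), where Rmi1, Cacna1a and Plekhh2 turned to 0.0592, 0.29 and 0.13. With the filter worded as the percentile of the probe set means, added after seeing the data, 159 probe sets of 157 genes met the rule. The limma counts of 1 higher and 2 lower became 0 and 0 without an intensity trend and without a filter. They were 6 higher with median centring and 3 higher with the filter at the 60th percentile, and 1 lower with the raised floor. Without each array they ran from 0 to 6 higher and from 0 to 5 lower. The cause was not tested.

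The titles give both regions the numbers 1 and 2 without saying what they share. Over all probe sets the median absolute difference between same-numbered arrays of the 2 regions was 0.20 for number 1 and 0.16 for number 2. Within a region it was 0.35 (synaptic) and 0.30 (non-synaptic). Deviations of same-numbered arrays from their region means had a correlation of 0.63 over all probe sets and 0.08 over the 145. The rule disfavours probe sets with large shared deviations, so these correlations cannot be compared. The standard errors and the limma counts without the block leave the numbers out. With the replicate block limma called 56 higher and 18 lower, and 2 of the 18, Ssr3 and Pde2a, were among the genes described. Both were read from a probe set whose name ends in _x_at. With the replicate block in the rule, each synaptic array being set only against the non-synaptic array of its number, 304 probe sets of 299 genes met it.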

Other observations

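Another 47 probe sets met the same values without being annotated to 1 gene, 45 of them to none and 2 to several. Their differences ran from -6.24 to -0.70 with a median of -0.93, and 1 of them had both synaptic arrays at the floor. The regions were at least 0.7 apart in 13 of these 47, against 25 of the 145 probe sets described.

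In the direction opposite to the genes described, 246 probe sets of 220 genes with 1 symbol met the values turned round, against 163 probe sets lower before names were left out. Of the lymphocyte markers 7 had a probe set and 3 were measured, and the 7 had a summed intensity of 13732 in synaptic replicate 1 and from 3400 to 4471 in the other arrays.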
